A study of Mus musculus with 6 samples.

Results

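Glutathione S-transferases (GST), UDP-glucuronosyltransferases (UGT) and sulfotransferases (SULT) join a small polar group to drugs, hormones, bile pigments and lipid oxidation products. The 64 mouse genes described here are the protein-coding genes whose symbols begin with Gsta, Gstm, Gstp, Gstt, Gsto, Gstk, Gstz, Ugt1, Ugt2, Ugt3 or Sult, out of 21911 protein-coding genes annotated on chromosomes 1 to 19, X and Y (GENCODE release M21 basic, build GRCm38, the same assembly as mm10). They comprise 22 GST, 21 UGT and 21 SULT genes. Open chromatin was mapped in 6 libraries by ATAC-seq, a method that lets a transposase insert sequencing adapters wherever DNA is accessible. Each library was made from 3 proximal tubules dissected by hand from the S1 segment, the part of the nephron next to the glomerulus, of wild-type male C57BL/6 mice operated on at 7 weeks of age. Tubules came from mice 24 h after surgery, of which 3 libraries followed a sham operation (Sham) and 3 a unilateral nephrectomy (UNx), the excision of 1 kidney. Nothing in the labels ties each library to its own mouse, so p-values measure only the spread between these libraries.

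In a kidney proximal tubule cell these enzymes act beside the transporters that take organic anions and drugs from the blood. GSTs use glutathione, UGTs use UDP-glucuronate in the endoplasmic reticulum, and SULTs use the sulfate donor PAPS in the cytosol. Most of the genes lie in tandem clusters of close copies. The Ugt1 genes share their last exons, and each has a first exon and a start of its own along 1 locus.

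The measure is the deposited peak list of each library. Every list was cut to its 77355 strongest peaks by the authors' −log10 q, and a peak was given its percentile rank within the list, 100 for the strongest and 0 for a region without a peak among them. A promoter region has a peak summit within 1 kb of an annotated start of a member, and a gene body region has its summits inside a member and farther than that from every member's start. The lists give no read counts, so the depth of the libraries is unknown and no counting interval can be given. The deposited lists held between 77355 (Sham 2) and 100999 (UNx 2) peaks. A lower rank from fewer cells with an open site and one from a less open site in each cell cannot be told apart in such libraries.

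All 8 S1 tubule marker genes had a promoter peak in all 6 lists, with a median rank of 91.2, among them Lrp2 (megalin), Slc5a2 (SGLT2) and Slc34a1 (the sodium-phosphate cotransporter). No list held a promoter peak of the 3 immune genes (Ptprc, Cd68, Lyz2), of the stromal genes Pdgfrb and Acta2, or of Slc12a3 and Aqp2 of the distal nephron. Other markers of these lists were open: stromal Col1a1 had mean ranks of 69.2 in Sham and 61.0 in UNx and distal Calb1 65.1 and 66.001. The distal nephron and collecting duct genes Atp6v1b1 and Kcnj1 had a peak in UNx 1 only, at ranks of 39.4 and 38.4. Of the podocyte genes, Podxl was in all lists (53.6 and 45.1) and Nphs1 in 5. Of 6 genes of the S2 and S3 segments 3 were in all lists, Acy3 (93.3 and 94.5), Slc22a7 (66.6 and 50.1) and Cyp7b1 (25.3 and 20.3). The 4 endothelial genes had ranks between 0 and 20.3 in Sham and 0 in every UNx library. The thick ascending limb gene Slc12a1 had a mean rank of 56.9 in Sham and 30.2 in UNx, and Umod, of the same segment, 65.4 and 69.4. The part that other cell types had in the differences below was not tested.

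Of the 64 genes, 32 (50%) had a promoter peak in all 6 lists, against 57.2% of all protein-coding genes. Another 5 had one in some lists, and 27 in none. The classes differed in their counts: 18 of 22 GST genes, 9 of 21 UGT genes and 5 of 21 SULT genes were present in all lists. Among the genes present in all lists the median rank of the strongest promoter region was 85.9 for GST, 61.3 for UGT and 79.0 for SULT genes, beside 87.6 for all such protein-coding genes. Counted per library, 33, 33 and 35 of the genes had a promoter peak in the Sham lists and 34, 35 and 35 in the UNx lists. The number of genes with an open promoter was therefore nearly the same after both operations.

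**Figure D1:**
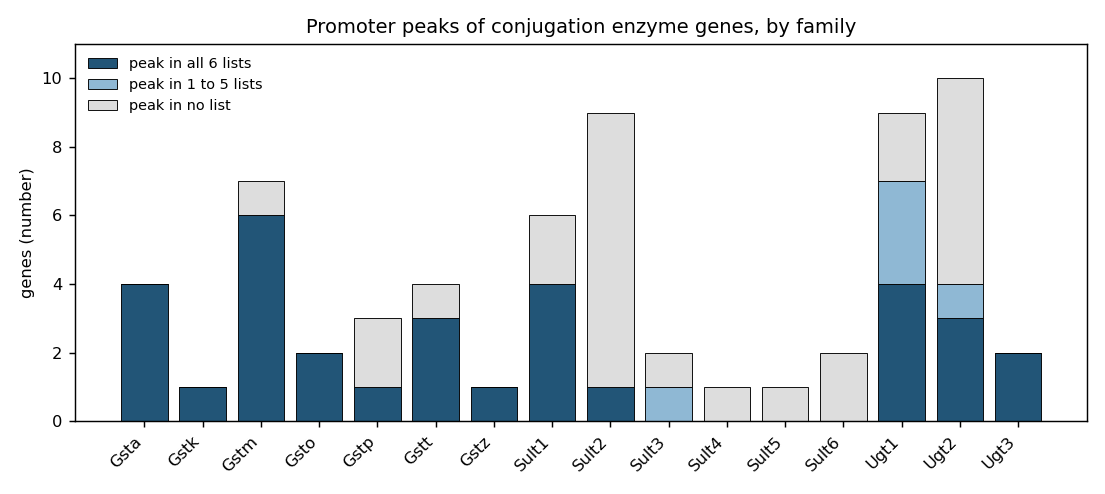
Bars give the number of genes in each family (vertical axis) whose promoter had a peak in all 6 lists (dark), in 1 to 5 lists (light blue) or in none (grey). All 4 Gsta genes were present in all lists, and 8 of the 9 Sult2 genes were in none.

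GST genes had the strongest promoters of the 3 classes. The highest was that of Gsto2, an omega-class enzyme that reduces dehydroascorbate, with ranks of 98.1, 99.3 and 97.6 in Sham and 99.0, 99.4 and 99.7 in UNx. Gsto1, its neighbour on chromosome 19, had 85.03, 96.3 and 89.1 in Sham and 94.0, 88.8 and 96.4 in UNx. Both omega genes thus lay near the top of every list. The promoter of Gstz1, the maleylacetoacetate isomerase of tyrosine breakdown, had 99.6, 99.4 and 96.9 in Sham and 98.5, 99.2 and 99.2 in UNx, at a region that also holds a start of Pomt2. Gstk1, the kappa-class enzyme of mitochondria and peroxisomes, had 96.1, 95.0 and 96.8 in Sham and 96.1, 98.3 and 93.7 in UNx. For both genes the ranges of the operations overlapped.

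The mu-class genes (Gstm, chromosome 3) were open except for Gstm2. Gstm1 had ranks of 98.1, 96.1 and 96.0 in Sham and 94.1, 96.0 and 97.2 in UNx, and Gstm4 had 95.1, 82.3 and 91.4 in Sham and 93.2, 86.0 and 93.2 in UNx. Gstm3, Gstm5, Gstm6 and Gstm7 were present in all lists, whereas Gstm2 had a promoter peak in none of the equal-length lists and in 4 of the 6 lists as deposited. Among the pi-class genes only Gstp1 was open at the starts used, with 75.7, 88.1 and 79.8 in Sham and 81.9, 81.2 and 90.1 in UNx. Gstp2 and Gstp3 had no promoter peak in these lists. A region spanning the 5′ end of the annotated Gstp2 gene (chr19:4045704-4046467) was in all lists, with mean ranks of 70.2 in Sham and 55.8 in UNx. It counts as between genes by the 1 start used for Gstp2, which has 6 over all annotated transcripts. Of the theta class, Gstt3 had 92.9, 89.8 and 91.9 in Sham and 92.4, 95.4 and 92.2 in UNx. A start of the protein-coding gene Gm20441 also lies within 1 kb of a summit of that region. Gstt2 had 74.5, 73.3 and 67.7 in Sham and 67.6, 58.7 and 65.6 in UNx at its strongest start, Gstt1 was present in all lists, and Gstt4 was present in none. Within these tandem families 1 copy could therefore be near the top of every list and a neighbour without a promoter peak at the starts used.

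The alpha-class genes, whose products act on lipid peroxidation products, were all open but ranked lower. Gsta3 had ranks of 85.6, 88.9 and 83.3 in Sham and 82.3, 67.6 and 86.7 in UNx. Gsta2 had 69.9, 65.6 and 56.7 in Sham and 71.2, 70.8 and 72.9 in UNx. Gsta1 was also present in all lists, at a region whose summit lay 882 bp before its start (median over the lists). Of the 32-base words within 500 bp of that start 83.8% occur elsewhere in the genome.

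**Figure D2:**
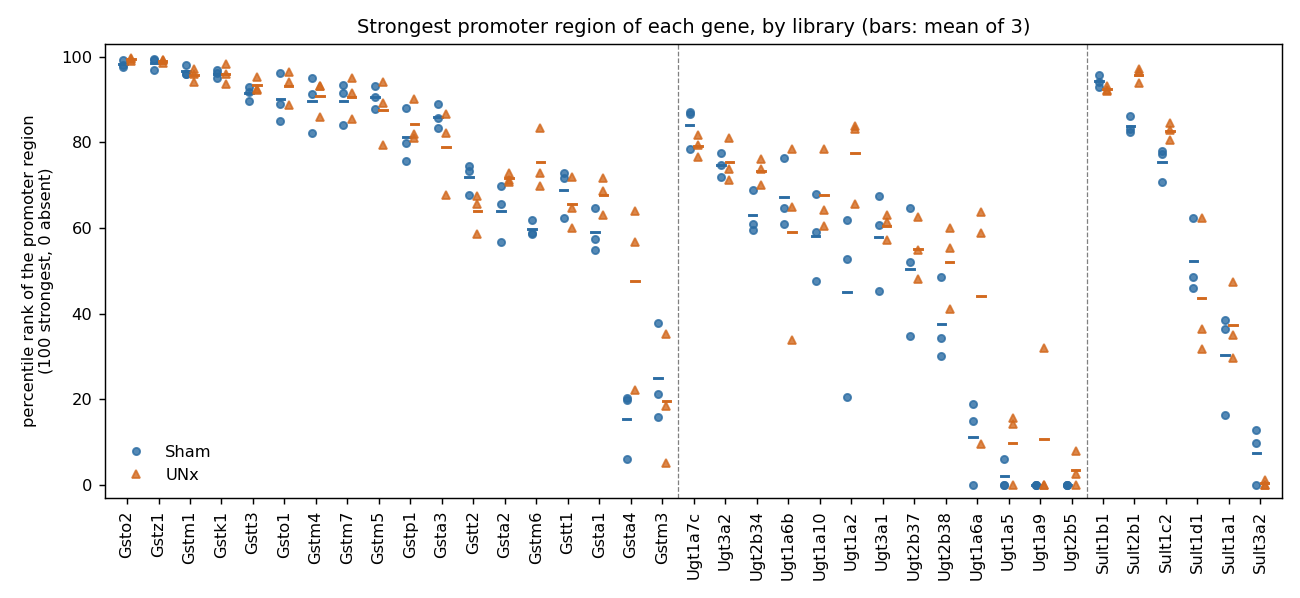
Each point is the percentile rank of a gene's strongest promoter region in 1 library (vertical axis), blue circles for Sham and orange triangles for UNx, with short bars at the mean of 3, and genes (horizontal axis) are ordered by mean rank within GST, UGT and SULT, from left to right. The highest ranks belong to GST promoters, but other GST promoters lie among the UGT ranks, down to a mean of 22.3 for Gstm3. Most UGT promoters lie between ranks of 20 and 80.

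UGT promoters had intermediate ranks. Along the Ugt1 locus on chromosome 1, Ugt1a7c had 78.5, 87.2 and 86.7 in Sham and 76.7, 79.4 and 81.7 in UNx. Ugt1a10, Ugt1a2 and Ugt1a6a were also present in all lists. The region assigned to Ugt1a6b had 61.1, 76.3 and 64.7 in Sham and 64.8, 33.9 and 78.5 in UNx. A summit fell inside the 1 kb window in 4 of the lists, a median of 960 bp before the start. Ugt1a5 had a promoter peak in 3 lists and Ugt1a9 in 1. Ugt1a1, which conjugates bilirubin, and Ugt1a8 had no promoter peak in any list, as deposited or cut. So 1 shared locus held strong, weak and absent first-exon promoters in the same libraries.

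Of the 10 Ugt2 genes, 3 had a promoter peak in all lists. Ugt2b34 had ranks of 60.9, 68.8 and 59.5 in Sham and 76.2, 70.0 and 73.7 in UNx, and Ugt2b37 had 64.8, 34.7 and 52.0 in Sham and 48.1, 62.6 and 54.8 in UNx. Ugt2b38 was the other gene present throughout. Ugt2b5 was absent from the Sham lists and present at ranks of 7.89 and 2.47 in UNx 1 and UNx 2. These are near the bottom of the lists, and 51.1% of the 32-base words around its start are repeated elsewhere. Ugt2a1, Ugt2a2, Ugt2a3, Ugt2b1, Ugt2b35 and Ugt2b36 were in none of the equal-length lists, and Ugt2b35 was in 2 of the lists as deposited. Both Ugt3 genes, whose enzymes use sugar donors other than UDP-glucuronate, were open: Ugt3a2 had 77.5, 71.9 and 74.7 in Sham and 81.1, 73.9 and 71.3 in UNx, and Ugt3a1 had 45.3, 67.6 and 60.8 in Sham and 62.9, 61.4 and 57.1 in UNx.

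Among the SULT genes, Sult1b1, whose product sulfates thyroid hormones and other phenols, had the strongest promoter, with ranks of 94.0, 93.0 and 95.8 in Sham and 92.3, 92.0 and 93.1 in UNx. Sult1c2 had 77.4, 70.8 and 77.9 in Sham and 82.9, 84.5 and 80.6 in UNx. Sult1a1, a phenol sulfotransferase, and Sult1d1, which acts on catecholamines, were present in all lists at lower ranks. Sult3a2 had ranks of 0, 12.8 and 9.72 in Sham and 0, 1.09 and 0 in UNx. The estrogen sulfotransferase gene Sult1e1 and Sult1c1, Sult3a1, Sult4a1, Sult5a1, Sult6b1 and Sult6b2 had no promoter peak.

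All 8 Sult2a genes, which encode bile acid and hydroxysteroid sulfotransferases, were without a promoter peak, also in the lists as deposited. Their cluster spans 870 kb of chromosome 7 and held 2 regions in all, both between the genes. Reads from near-identical copies may be discarded or split, and how the authors treated them is not given in the sources used here. For Sult2a1 and Sult2a2, 94.5% and 90.5% of the 32-base words around the start occur elsewhere in the genome. Shares were 23.1% for Sult2a3, 23.2% for Sult2a5, at most 42.8% for Sult2a4 and at most 11.65% for Sult2a7. For Sult2a6 the share was 0.103%, for Sult2a8 at most 2.37%, for Ugt1a1 0.825% and for Sult1e1 0%. The part that repetition of the sequence had in these absences was not tested.

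The promoters differed from the average promoter in base composition. RefSeq's table for GRCm38.p6 (250 bases before to 50 after a start) held 67 promoters of 56 of the genes. Their median GC content was 45.7%, against 52.7% for all 32851 promoters of the table, with 55.5% for GST, 37% for UGT and 40.5% for SULT. An observed over expected CpG ratio above 0.6, as in a CpG island, was found in 8.96% of the promoters and in 35.8% of all.

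A motif of the tubule and liver factor HNF1, the letters GTTAAT (the core of each arm of its palindromic site) read on both strands, occurred in 14 of the 67 promoters (20.9%) and in 7.099% of all promoters of the same length. It was in 6 of 19 UGT, 7 of 20 SULT and 1 of 28 GST promoters. Among promoters of genes with a peak in all lists 6 of 39 held it, and among those of genes with a peak in none 6 of 24. The GC box GGGCGG was in 17 promoters (25.4%, against 35.7% of all), 14 of them GST promoters, and TATAAA in 15 (22.4%, against 13.6%). The antioxidant response core TGACNNNGC was in 3 promoters, of Gsta3, Gstm5 and Gstm7 (4.48%, against 12.4%). The AHR core TNGCGTG was in 3 (4.48%, against 5.07%), and the HNF4 string CAAAGTCCA in 1, that of Sult1b1 (1.49%, against 0.475%). TGACNNNGC and TNGCGTG can overlap, and each match is a description of the letters only.

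GTTAAT stood in open and in closed promoters, and 6 of these 60-base stretches are shown for that contrast, with the match in capitals. Ugt1a10 and Ugt1a1 belong to 1 locus, and the other stretches come from different families. They are given 5′ to 3′ on the gene's strand. Gsta3 (chr1:21240409-21240468, plus strand), Ugt1a10 (chr1:88055284-88055343, plus strand) and Sult1d1 (chr5:87569053-87569112, minus strand) had a promoter peak in all lists:
Gsta3: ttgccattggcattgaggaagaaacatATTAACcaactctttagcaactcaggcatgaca
Ugt1a10: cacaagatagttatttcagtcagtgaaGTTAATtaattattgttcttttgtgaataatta
Sult1d1: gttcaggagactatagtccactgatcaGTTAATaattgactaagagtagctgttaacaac
Ugt1a1 (chr1:88211891-88211950, plus strand), Ugt2a3 (chr5:87337217-87337276, minus strand) and Sult2a6 (chr7:14254909-14254968, minus strand) had a promoter peak in none:
Ugt1a1: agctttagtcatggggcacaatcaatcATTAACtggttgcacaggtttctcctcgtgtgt
Ugt2a3: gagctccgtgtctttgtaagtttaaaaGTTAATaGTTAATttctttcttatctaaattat
Sult2a6: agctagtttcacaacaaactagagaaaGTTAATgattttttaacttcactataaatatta
The Ugt2a3 stretch holds the match at 2 places.

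UNx was then compared with Sham for each region by limma on the percentile ranks, over all 74781 regions present in at least 3 lists, with Benjamini-Hochberg adjustment over all of them and a threshold of 0.05. Of these, 589 (0.788%) passed. Of the 45 member promoter regions tested, 1 (that of Sult2b1) passed and rose, beside 0.435% of the 14469 tested promoter regions of protein-coding genes. At an unadjusted p under 0.05 there were 8 of the 45, all higher after UNx, beside 14.3% of coding promoters. In 12 of the 45, the 3 UNx values did not overlap the 3 Sham values, with 11 higher after UNx, beside 20.9%. As shares of the 45 these counts are 2.22%, 17.8% and 26.7%, near the background for the unadjusted p and for groups without overlap, and resting on 1 region for the call.

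The direction was less even than the number of calls. Of the 45 promoter regions 33 had a higher mean rank after UNx, with a median difference of 3.20 rank points, where all coding promoters had a median of 0.0155 and 50.3% were higher. By class, 12 of 14 UGT regions (median 8.94), 16 of 23 GST regions (1.23) and 5 of 8 SULT regions (5.16) were higher. Regions of 1 locus are not independent of each other, and no test was made of these lists. Ranking by fold enrichment in place of −log10 q gave 26 of 43 higher and a median of 1.08.

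**Figure D3:**
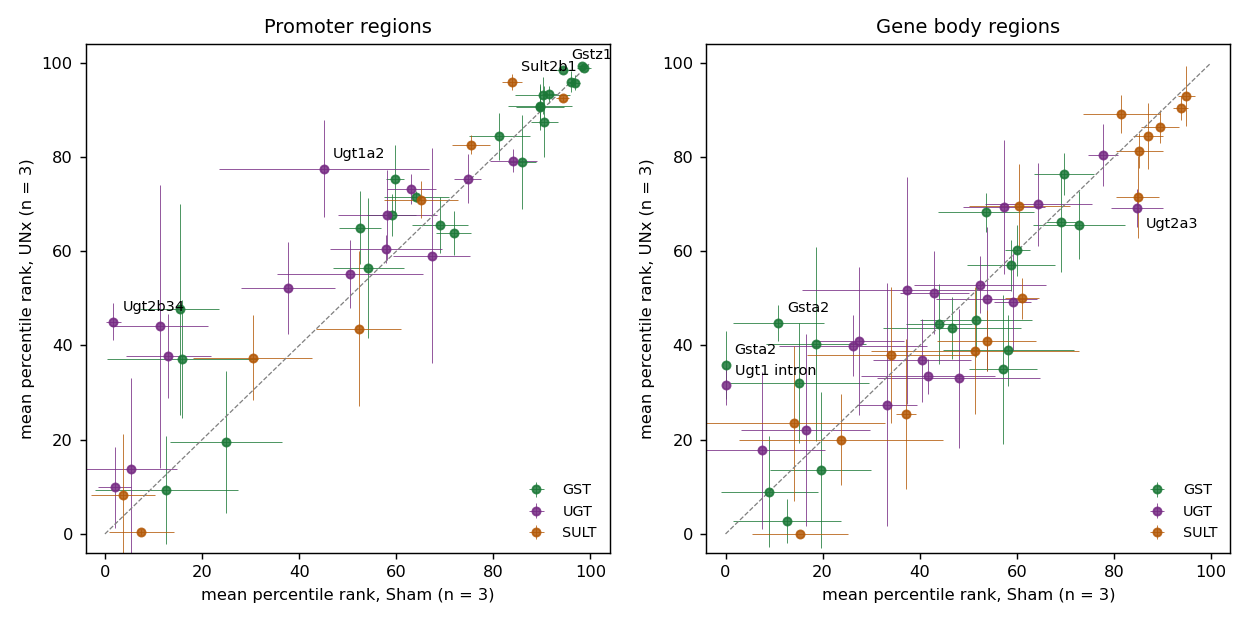
Each point is 1 tested region, with its mean percentile rank in Sham on the horizontal and in UNx on the vertical axis (bars: SD, n = 3), for promoter regions (left) and gene body regions (right), coloured by class. Of the promoter regions 33 of 45 lie above the dashed line of equal rank, and of the gene body regions 23 of 52.

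The promoter region that passed belongs to Sult2b1 (ENSMUSG00000003271.17), whose enzyme sulfates cholesterol and pregnenolone. It lies at chr7:45759264-45760107, in an intron of the longer transcript, with its summit 22 bp before the start of a shorter one, and 61.8% of its bases are G or C. Its ranks were 82.4, 83.04 and 86.2 in Sham and 97.2, 94.0 and 96.4 in UNx. All 3 UNx values lay above all 3 Sham values. The −log10 q values in the deposited lists were 74.7, 36.5 and 85.4 in Sham and 128, 149 and 261 in UNx. They are not scaled between lists, whose median −log10 q was 17.4, 12.1 and 18.1 in Sham and 14.5, 20.3 and 26.5 in UNx. The difference was 12.0 rank points (SE 2.17, limma adjusted p = 0.0279). The call was lost on leaving out any 1 library (adjusted p from 0.0547 to 0.134), with differences from 11.2 to 13.2. With ranks corrected for GC content the difference was 10.96 (adjusted p = 0.162), and with ranking by fold enrichment 6.35 (adjusted p = 0.246). At the outer start of the gene, in a region shared with Lmtk3, ranks were 58.4, 73.3 and 63.7 in Sham and 73.4, 73.1 and 66.5 in UNx, and the groups overlapped (adjusted p = 0.626). The 150 bases before the inner start (chr7:45759613-45759762, minus strand), where the summit lies, hold none of the 6 motifs:
Sult2b1: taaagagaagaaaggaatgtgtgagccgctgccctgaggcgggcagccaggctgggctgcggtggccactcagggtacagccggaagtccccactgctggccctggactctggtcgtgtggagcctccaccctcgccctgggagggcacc

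The other promoter regions of smallest p did not pass. At Ugt2b34 a region in a coding exon, 554 bp past the start (chr5:86906100-86906487), had ranks of 2.17, 0 and 3.07 in Sham and 47.3, 47.4 and 40.5 in UNx (difference 43.3, SE 10.4, limma adjusted p = 0.0541). The groups were far apart there, and at the start of the same gene, given above, they were apart as well but closer (adjusted p = 0.330). Ugt1a2 had 52.8, 20.6 and 61.9 in Sham and 83.9, 65.7 and 83.1 in UNx (difference 32.4, SE 8.93, adjusted p = 0.0814), with Sham 2 below the other libraries. Ugt1a6a, a phenol-conjugating form, had at a region 916 bp before its outer start 18.98, 0 and 14.8 in Sham and 58.9, 9.52 and 63.7 in UNx (adjusted p = 0.198), and at its inner start 23.1, 8.64 and 7.47 in Sham and 38.9, 46.2 and 28.4 in UNx (adjusted p = 0.229). Every UGT region in this group had the higher mean after UNx, and only the outer Ugt1a6a region had overlapping groups.

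Among the GST promoters, Gsta4, whose enzyme conjugates 4-hydroxynonenal, had ranks of 5.99, 19.8 and 20.4 in Sham and 56.7, 22.2 and 64.0 in UNx (difference 32.2, SE 11.9, limma adjusted p = 0.159). Gstm6 had 61.9, 58.6 and 58.9 in Sham and 69.8, 83.4 and 72.8 in UNx (difference 15.5, SE 5.69, adjusted p = 0.157). A second Gstz1 start had 95.0, 92.3 and 95.5 in Sham and 98.7, 98.1 and 98.6 in UNx (difference 4.22, SE 1.46, adjusted p = 0.139). In these 3 genes every UNx library ranked above every Sham library, for Gsta4 by under 2 points in UNx 2.

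**Figure D4:**
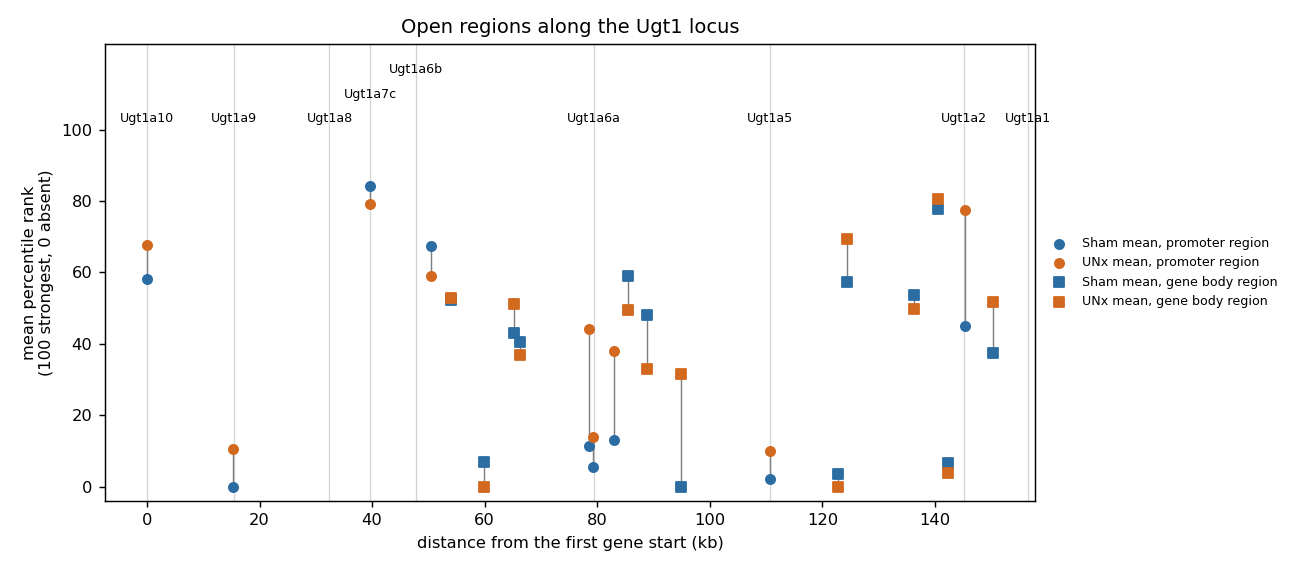
Mean percentile ranks (vertical axis) in Sham (blue) and UNx (orange) of promoter regions (circles) and gene body regions (squares) along the Ugt1 locus, by distance from the first start (horizontal axis, kb), with grey lines at the annotated gene starts. The Ugt1a2 promoter, the regions around Ugt1a6a and an intron region absent from Sham have the longest lines between the operations.

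Gene body regions gave no call: 0 of 52 tested passed the adjusted threshold of limma, beside 0.773% of the coding gene body regions. At an unadjusted p under 0.05 there were 9, of which 5 were higher after UNx, beside 19.1%. The groups did not overlap in 8, of which 3 were higher, beside 24%. As shares of the 52 these are 17.3% and 15.4%, below the background. Of the 52, 3 had peaks in the lists of 1 operation only and so could not fail to differ. In all, 23 were higher after UNx, with a median difference of -2.18, where all coding gene body regions had 0.740. The promoters and the gene bodies of these genes therefore differed in the direction of their medians.

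The gene body regions of smallest p included 3 in Gsta2. In an intron at chr9:78344569-78344786, ranks were 0, 0 and 0 in Sham and 27.7, 41.8 and 37.8 in UNx. This region entered the test only through the UNx lists, so it had to differ, and its adjusted p was 0.159 in limma without the filter on the number of lists. As deposited, 2 of the Sham lists hold a weaker peak there. In a second intron region (chr9:78343077-78343460) they were 16.4, 16.1 and 0 in Sham and 46.2, 40.5 and 47.8 in UNx (adjusted p = 0.108). The third (chr9:78354702-78355852), which spans the 5′ end of the annotated gene, had 48.8, 47.0 and 64.9 in Sham and 70.1, 63.4 and 71.2 in UNx (adjusted p = 0.259). It counts as gene body by the 1 start used for Gsta2, which has 4 over all annotated transcripts. All 3 had the higher mean after UNx, and the groups overlapped at the third. Repeat-masked bases make up 61.0% of the first region and 0% of the second, beside a median of 9.43% over all tested regions.

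An intron region shared by 6 of the nested Ugt1 genes (chr1:88149984-88150381) was absent from all Sham lists, also as deposited, and had ranks of 35.7, 27.6 and 31.2 in UNx. It too entered the test only through the UNx lists (limma adjusted p = 0.171 without the filter). It and the first Gsta2 region were the only member regions found in all equal-length UNx lists and no Sham list. Sult1b1 had the only member region with the opposite pattern, an intron region (chr5:87526007-87526281, all of it repeat-masked) at 25.3, 5.61 and 15.2 in Sham and 0 in UNx, which entered the test only through the Sham lists. The share of all merged regions with either pattern is not given here, so these few member regions are a description only. The 150 bases around the summits of both UNx regions are given on the strand of the gene. They are shown because these regions had a peak in every equal-length UNx list and in no equal-length Sham list. None of the 6 motifs occurs in these bases (chr9:78344591-78344740, minus strand, and chr1:88150185-88150334, plus strand):
Gsta2 intron: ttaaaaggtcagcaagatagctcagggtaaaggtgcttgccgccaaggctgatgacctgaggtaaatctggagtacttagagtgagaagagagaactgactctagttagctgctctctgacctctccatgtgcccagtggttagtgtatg
Ugt1 intron: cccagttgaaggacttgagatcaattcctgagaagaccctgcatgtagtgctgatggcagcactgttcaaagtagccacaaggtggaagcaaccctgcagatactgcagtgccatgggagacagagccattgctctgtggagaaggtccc

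Lower after UNx were regions in Ugt2a3, Sult5a1, Gstt2 and Gsto2. An intron region of Ugt2a3, a gene without a promoter peak, had 80.3, 90.6 and 83.05 in Sham and 70.9, 71.9 and 64.5 in UNx (limma adjusted p = 0.0885). An exon region of Sult5a1, also without a promoter peak, had 88.0, 79.9 and 87.0 in Sham and 78.5, 74.3 and 61.9 in UNx (adjusted p = 0.140). Both genes thus held strong regions in their bodies while their starts had none. In Gstt2 an exon region had 62.0, 60.5 and 49.1 in Sham and 16.8, 42.7 and 45.2 in UNx (adjusted p = 0.214). In Gsto2 an intron region had 43.8, 60.5 and 70.4 in Sham and 35.2, 47.6 and 34.1 in UNx (adjusted p = 0.253), with overlapping groups.

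**Figure D5:**
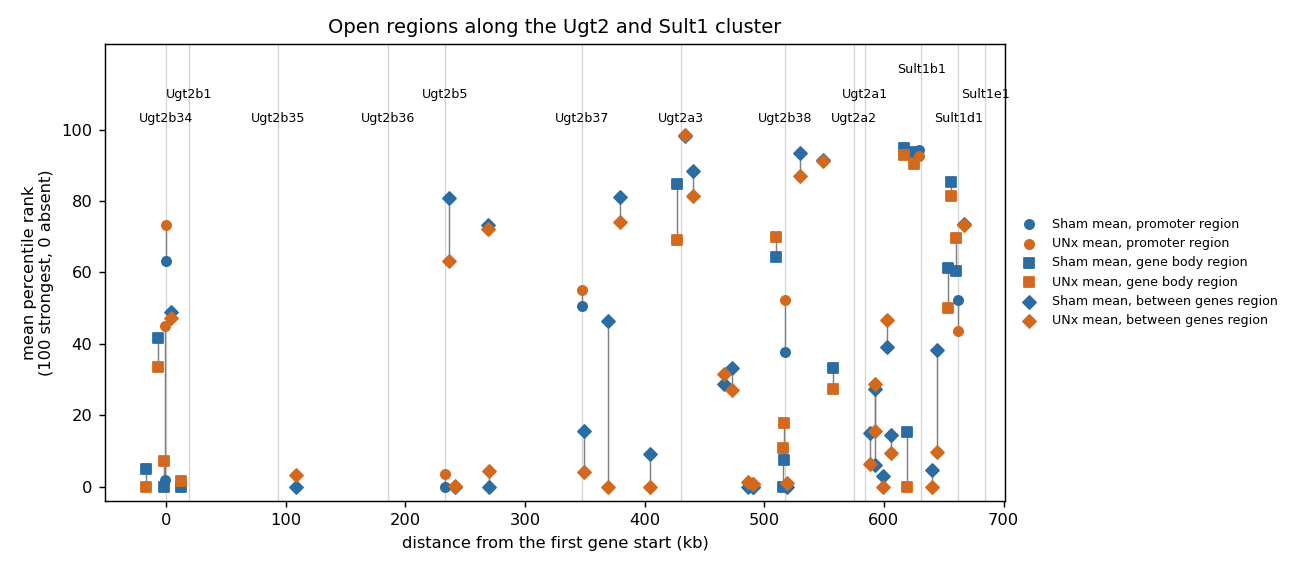
Mean percentile ranks (vertical axis) in Sham (blue) and UNx (orange) along the cluster of Ugt2 and Sult1 genes, by distance from the first start (horizontal axis, kb), with circles for promoter regions, squares for gene body regions and diamonds for regions between the genes. The Ugt2 promoters have the higher mean in UNx, while the Sult1b1 and Sult1d1 promoters and most regions between genes have the higher mean in Sham.

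Genes that supply or follow these enzymes were examined in 6 lists, and no promoter region in any of them passed the limma threshold. At an unadjusted p under 0.05 there were 2 of 11, 1 of 7, 0 of 8, 2 of 10, 4 of 13 and 1 of 6 tested genes, in the order of the lists below, beside the 14.3% of coding promoters. Of the 11 genes of glutathione supply and mercapturate formation, 10 had a peak in all lists and 5 of 11 tested were higher after UNx. Gclm, the regulatory subunit of the enzyme that limits glutathione synthesis, had mean ranks of 96.1 in Sham and 91.1 in UNx (adjusted p = 0.133), and Nat8, the N-acetyltransferase of mercapturate formation, 59.5 and 38.5 (adjusted p = 0.233). All 7 genes of the list named for UDP-glucuronate supply were open in all lists and 1 was higher after UNx. This list is wider than its name, and the genes of smallest p in it need not supply UDP-glucuronate. Gusb, the lysosomal beta-glucuronidase, had 87.4 and 80.6 (adjusted p = 0.260). Slc35a3, a nucleotide sugar transporter gene and the 1 that was higher, had 64.0 and 76.2 (adjusted p = 0.279). All 8 genes of sulfate supply were open, 4 were higher after UNx, and those of smallest p were Impad1 (mean ranks of 89.7 and 93.7, adjusted p = 0.411) and Bpnt1 (mean ranks of 78.9 and 71.4, adjusted p = 0.486), both phosphatases of the sulfation by-product PAP.

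Among 12 other conjugation enzymes 10 were open in all lists and 7 of those 10 were higher after UNx. The microsomal glutathione transferase gene Mgst1 had ranks of 58.8, 38.6 and 50.4 in Sham and 74.3, 72.3 and 71.6 in UNx (limma adjusted p = 0.0907). Acsm2, an acyl-CoA synthetase of amino acid conjugation, had 91.9, 87.2 and 86.1 in Sham and 66.6, 78.5 and 74.5 in UNx (adjusted p = 0.0646). In both genes the operations did not overlap, in opposite directions. Of 14 regulators 12 were open in all lists, and 8 of 13 tested were higher after UNx. Maff, a small partner of NRF2, had mean ranks of 40.5 and 68.1 (adjusted p = 0.0894), and the fatty acid receptor gene Ppara 85.4 and 75.5 (adjusted p = 0.160). Among 7 genes of the list named for efflux transporters 6 were open, and 3 of 6 were higher after UNx. This list too is wider than its name. Slc22a6 and Slc22a8 encode uptake carriers of organic anions, and Slc22a8 was the gene without a promoter peak. Abcb1b (mean ranks of 70.3 and 80.2, adjusted p = 0.241) and Abcb1a (mean ranks of 73.1 and 79.9, adjusted p = 0.410), which encode P-glycoproteins, had the smallest p.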

How the data were processed

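Peak lists of 6 ATAC-seq libraries of S1 proximal tubules were used, 1 per library. Per the submitters' processing notes, cutadapt 3.4, Bowtie, SAMtools, Picard and MACS2 2.2.7.1 were named with build mm10, without roles or settings. Peak settings, the filter, read length and treatment of reads matching several places are not given in the sources used here. The lists deposited by the authors give, per summit, a fold enrichment (ratio), a −log10 p and a −log10 q, and a display score, and peaks were called per library.

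An interval took its strongest summit. For promoter regions the distance from summit to start is the median over the lists. Lists were cut to 77355 peaks, ranked by −log10 q, and overlapping intervals (1 bp or more) gave 99359 merged regions, of which 74781 in at least 3 lists were tested. The test was two-sided in limma 3.58.1 under R 4.3.3, with eBayes set to a mean-variance trend and robust estimation, no covariate, Benjamini-Hochberg adjustment and a threshold of 0.05. The fit was tested on simulated data. Repetition is the share of 32-base words within 500 bp of a start found elsewhere in GRCm38.p6. Overlaps used bedtools 2.31.1 and Python 3.11.15.

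The members and lists were chosen with earlier results of these data known. Values in every library are given for the 2 highest-ranked members of each family, members with a called region, the 8 promoter and 8 gene body regions of smallest p, and members found in at least 2 lists of 1 operation only, and for context lists the 2 genes of smallest p. Alternatives were list length, ranking by fold, a −log10 q minimum, overlap, window, normal scores, GC correction, no presence filter, a replicate block and each library left out, and 1 added after seeing the data, the starts of all annotated transcripts. Depth is unknown.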

Additional observations from a re-analysis of the deposited data

How the results depend on the processing

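The single promoter call (Sult2b1) kept its direction under all 18 alternatives and passed the threshold under 5 of them, of which the wider window and the added transcript starts leave its fit as it was. The count of promoter calls was 0 with all deposited peaks, with the 20000 strongest peaks, with ranking by fold enrichment, with GC-corrected ranks, without the filter on the number of lists, with the replicate block and with the block and GC correction together, and 0 to 0 when each library was left out in turn. The cause was not tested. Gene body calls were 0 under every alternative. Members with a promoter peak in all lists fell to 13 with the 20000 strongest peaks, a construction that keeps fewer peaks. Member regions in all lists of 1 operation and none of the other numbered 3, and 7 with all deposited peaks and 1 with the 20000 strongest. These counts too are given without the share over all merged regions. The median promoter difference was 0.126 on the normal-score scale, which has other units, ranged from 1.08 (fold enrichment) to 5.51 (all deposited peaks) otherwise, and from 2.45 to 4.74 when each library was left out. None of the 16 promoter and gene body regions of smallest p changed direction under the alternatives that gave a value. For 12 of them the 20000 strongest peaks gave none, and ranking by fold or a −log10 q of at least 5 gave none for 1 each. Other regions named were not run under the alternatives. Replicate numbers did not pair the libraries (correlations of deviations 0.00819, -0.100 and -0.0496), and the block left 8 promoter regions at an unadjusted p under 0.05. Without counts, depth cannot be separated from peak strength.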

Other observations

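The regions between the genes of the Ugt2 and Sult1 cluster (702 kb of chromosome 5, 13 of the genes) mostly had a lower mean rank after UNx. All 4 tested Ugt2 promoter regions, of which Ugt2b34 has more than 1, had a higher mean rank after UNx. The Sult1 promoter regions of the cluster were lower, with mean ranks of 94.3 in Sham and 92.5 in UNx for Sult1b1. For Sult1d1 the means were 52.3 and 43.6. Of the 19 tested regions between the genes 4 were higher. At an unadjusted p under 0.05 in limma there were 5 of these 19, all lower, beside 18.6% of all tested regions. One of the 5 entered the test only through the Sham lists, so it is given as a description: at chr5:87275542-87276511, 21388 bp from the start of Ugt2b37, ranks were 35.0, 51.0 and 53.3 in Sham and 0, 0 and 0 in UNx. Every Sham list and no UNx list held it, also as deposited, and 65.1% of its bases are repeat-masked. The region was singled out after its values were seen. The 150 bases around its summit (chr5:87276117-87276266, plus strand) are shown because, with the Sult1b1 intron region given above, it is 1 of the cluster's regions with a peak in every Sham list and in no UNx list:
Region between Ugt2 genes: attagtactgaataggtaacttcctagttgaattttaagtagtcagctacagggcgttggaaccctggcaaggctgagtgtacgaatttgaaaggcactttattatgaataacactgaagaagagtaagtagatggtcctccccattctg

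In the Ugt1 locus 12 of 18 tested regions had the higher mean after UNx (median difference 8.05), and in the cluster of Gsta1, Gsta2 and Gsta4 9 of 14 (8.14). In the Gstm cluster 7 of 16 were higher (-1.99), and in the Gstt cluster 5 of 11 (-2.85). No test of these counts was made, since regions of 1 cluster share their surroundings.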
